A study of Mus musculus with 6 samples.

Results

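The genes described here are 41 interferon-stimulated genes, chosen by symbol as known targets of interferon signalling. Of the 41 genes, 40 have a row among the 22095 genes of the table, and Oas1b is not analysed here. Polyadenylated RNA was sequenced from the olfactory bulbs, the brain structures that receive the nerve fibres of the nose, of 3 ICR mice (an outbred stock) numbered 1037, 1038 and 1039. Each mouse had a silica gel plug placed in the left naris at postnatal day 30 and was perfused with phosphate-buffered saline for removal of its bulbs 60 days after that. The left group holds the 3 bulbs of the plugged side, and the right group the 3 bulbs of the open side of the same mice. All mice had the surgery and none was left without a plug, so the right bulb shares the animal, the anaesthesia and the surgery with the left one, and a side difference present without a plug cannot be told apart. The labels name no genetic alteration and no infection.

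The library labelled left 1038 goes against its label. Dlx1 and Cdhr1, genes of bulb interneurons and of mitral and tufted cells, stood at 0.618 and 0.755 CPM (counts relative to the total of the library) in it. In the other 5 libraries they stood at 304 to 358 and 663 to 829.5 CPM. Cbln3, a gene of cerebellar granule cells, stood at 1217 CPM in left 1038 and at 0.478 to 1.10 CPM in the others. Results are therefore given for the other 5 libraries, with 2 on the left and 3 on the right, and then with all 6. Library totals lay between 14571453 and 15590938 counts. A count of 0 allows up to 3 counts, or 0.192 to 0.206 CPM depending on the library, and this limit covers counting error only.

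Interferons are secreted proteins, and cells release those of type I after they sense foreign or misplaced nucleic acid. Type I interferons bind a receptor coupled to the kinases JAK1 and TYK2, which phosphorylate STAT proteins, STAT2 among them. STAT2 and IRF9 are parts of the complex ISGF3, which binds the interferon-stimulated response element (ISRE) in promoters. Genes that respond to interferon gamma often carry the gamma-activated site (GAS). The induced genes encode RNA sensors, nucleases, ubiquitin-like modifiers, GTPases and proteasome subunits. In the brain microglia, astrocytes and endothelial cells can all express them, and many are transcribed at a low level without any infection. In bulk tissue, fewer cells of a type and less RNA per cell cannot be told apart.

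The elements can be read in the promoters of the genes. Promoter windows from 250 bases before to 50 bases after the start site were available from RefSeq (GRCm38.p6) for 32 of the 41 genes. The ISRE was searched as GAAANNGAAA on both strands, which reads TTTCNNTTTC when it lies on the other strand, and overlapping matches were counted. These letters were present for 16 of the 32 genes, against 3.99% of 27025 genes of the promoter table. The GAS letters TTCNNNGAA, the same on both strands, were present for 11 of the 32 (34.4%), against 9.55% of the genes of the promoter table. A match is a description of letters and no measure of binding. The stretches below show 8 of the genes with the ISRE letters, in capitals, and 2 transcription factor genes with the GAS letters in capitals, so that the form and number of the copies can be seen. Each reads 5′ to 3′ on the strand of its gene, upstream of the start site.
Isg15, ISRE, chr4:156200855-156200916, minus strand: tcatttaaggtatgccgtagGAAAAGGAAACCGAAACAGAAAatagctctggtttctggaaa
Ifit1, ISRE, chr19:34640765-34640833, plus strand: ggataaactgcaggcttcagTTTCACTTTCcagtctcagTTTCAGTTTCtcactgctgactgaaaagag
Ifit3, ISRE, chr19:34583353-34583436, plus strand: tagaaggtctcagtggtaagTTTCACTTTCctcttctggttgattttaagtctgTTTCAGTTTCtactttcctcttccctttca
Oas1a, ISRE, chr5:120907526-120907565, minus strand: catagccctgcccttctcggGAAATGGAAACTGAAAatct
Rsad2, ISRE, chr12:26456543-26456592, minus strand: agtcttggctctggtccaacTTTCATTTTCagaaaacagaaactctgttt
Gbp7, ISRE, chr3:142530263-142530312, plus strand: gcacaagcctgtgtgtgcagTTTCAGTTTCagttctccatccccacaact
Igtp, ISRE, chr11:58199502-58199551, plus strand: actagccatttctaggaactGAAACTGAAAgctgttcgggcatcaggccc
Stat2, ISRE, chr10:128270256-128270305, plus strand: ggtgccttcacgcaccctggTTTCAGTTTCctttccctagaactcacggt
Irf1, GAS, chr11:53769904-53769952, plus strand: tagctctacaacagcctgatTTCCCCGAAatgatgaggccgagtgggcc
Irf8, GAS, chr8:120736167-120736233, plus strand: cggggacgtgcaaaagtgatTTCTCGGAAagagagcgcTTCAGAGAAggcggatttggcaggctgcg
Isg15 carried 3 overlapping copies of the ISRE letters, Ifit1 and Ifit3 carried 2 separate copies each, and in Oas1a 2 copies overlapped and ended 5 bases before the start site.

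The interferon-stimulated genes were transcribed at low levels in the bulb, and most lay slightly higher on the plugged side. Psmb8, Oasl2, Parp14 and Stat2 rose there by log2 fold changes (left over right) of 0.31 to 1.01, and no member was called lower. Psmb10 lay lowest, at -0.39, and was not called. Of the 40 genes in the table, 39 passed the filter on low counts. Oas3, an oligoadenylate synthetase, did not, with 2 reads in left 1037 and 0 in each other library. By edgeR's quasi-likelihood test in 5 libraries, 4 of the 39 tested genes (10.3%) were called higher on the left at an adjusted p under 0.05, where 3.16% of all 14412 genes tested were called higher. None was called lower, where 6.46% of all genes were, which makes 9.62% of all genes in either direction. An unadjusted p under 0.05 was reached by 10 of the 39 members (25.6%), close to the 24.8% of all genes. The log2 fold change was above 0 in 37 of the 39 (94.9%), against 51.0% of all genes, and its median was 0.33 against 0.005 for all genes. With RLE size factors 37 members, and with total library size 38 members, lay above 0. Total library size moved the median of all genes by 0.082 and changed their split from 456 higher and 931 lower to 975 higher and 589 lower.

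Per kilobase of exon, the levels spanned a wide range. Ifitm3, a membrane protein that blocks the entry of viruses, was highest with a mean of 18.7 CPM per kilobase over the 5 libraries. It was followed by Ifi27 at 12.99, Ifit2 at 7.44, Stat2 at 7.38 and Psmb10 at 7.37 CPM per kilobase, of which the last 3 lay close together. Among tested genes the lowest levels were those of Ifi44 at 0.108, Psmb9 at 0.231 and Oas2 at 0.238 CPM per kilobase. The summed level of all members was 407 and 370 CPM in left 1037 and left 1039, above the 303, 306 and 310 CPM of the right libraries.

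**Figure D1:**
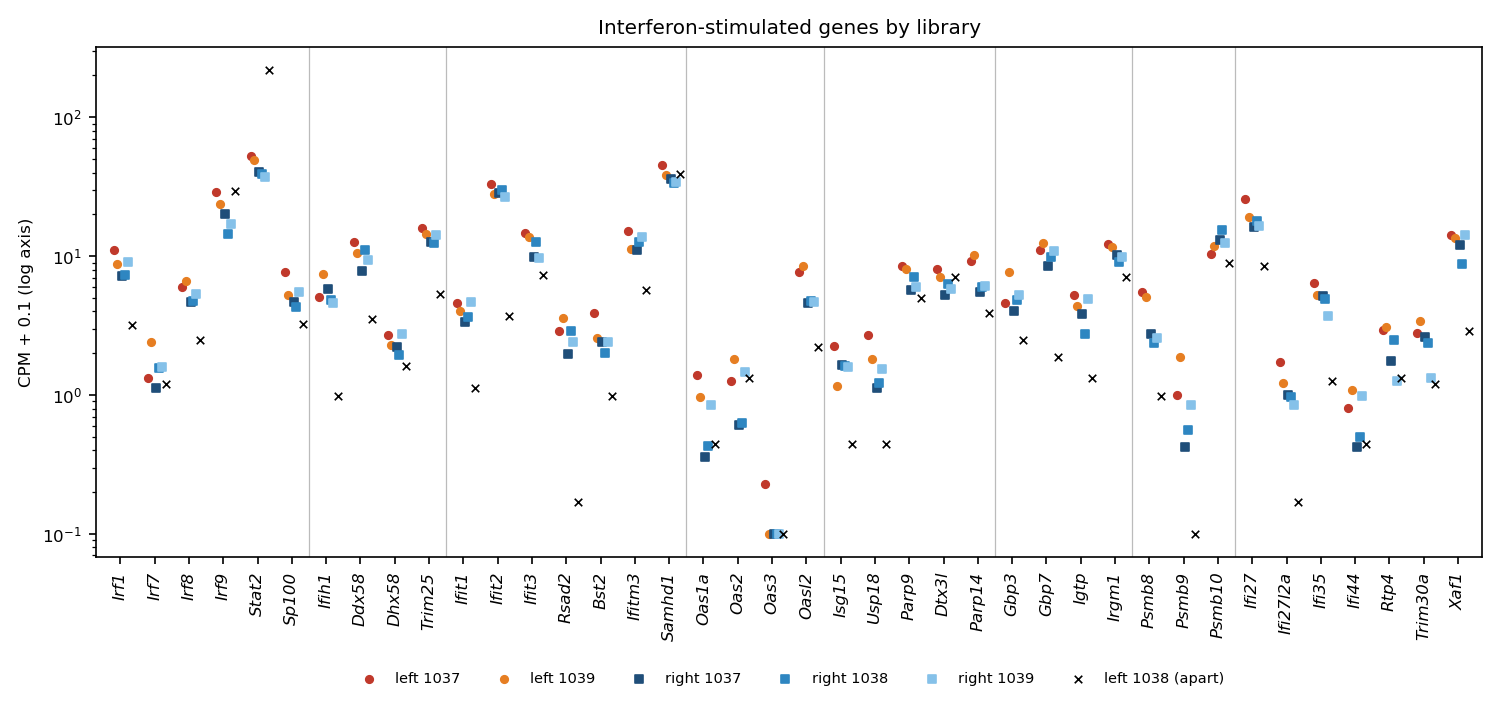
Level of each of the 40 genes in each library, as CPM plus 0.1 on a log axis, with genes grouped by role; circles are left bulbs, squares right bulbs and crosses the library labelled left 1038. Most genes sit between 1 and 50 CPM, and in 30 of the 39 tested genes the cross lies below the other 5 points.

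Among the transcription factors, Stat2, the part of ISGF3 that carries the transactivation domain, was called. Its gene (ENSMUSG00000040033) lies at chr10:128270559-128292849 (GRCm38). It stood at 52.7 and 49.1 CPM in left 1037 and left 1039, and at 40.5, 39.2 and 37.1 CPM in right 1037, right 1038 and right 1039. Both left bulbs lay above all right bulbs, with means of 50.9 ± 2.56 (SD, n = 2) and 38.9 ± 1.69 (SD, n = 3). The log2 fold change was 0.31 (SE 0.08, edgeR adjusted p = 0.0450). In CPM both left libraries lay above all right ones for 33.2% of all genes, and below them for 13.2%. These shares are the background for each gene below whose groups did not overlap. Irf9, the DNA-binding part of ISGF3, stood at 28.7 and 23.6 CPM on the left and at 20.1, 14.2 and 17.1 CPM on the right. Its groups did not overlap either, but the log2 fold change of 0.53 (SE 0.15) missed the threshold (edgeR adjusted p = 0.0579). With the mouse as a replicate block, where the side difference rests on mice 1037 and 1039, it passed (edgeR adjusted p = 0.0365). It also passed with DESeq2 (adjusted p = 0.0328), with total library size and with no filter. With side alone in the model, it passed without right 1037 (edgeR adjusted p = 0.0409). It did not pass without right 1038 or without right 1039 (edgeR adjusted p = 0.148 and 0.129). Without left 1037 and without left 1039 its log2 fold change was 0.38 and 0.67. Irf9 overlaps Rnf31 in the annotation, and the counts do not show how shared reads were assigned. Irf1, Irf7, Irf8 and Sp100 had log2 fold changes of 0.27, 0.34, 0.29 and 0.36 and were not called.

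The genes of RNA sensing were not called. Ifih1 and Ddx58, which encode the receptors MDA5 and RIG-I for viral RNA, had log2 fold changes of 0.22 and 0.22, and Trim25, a ubiquitin ligase that acts on RIG-I, had 0.13. Dhx58, which encodes the related protein LGP2, had 0.03. In Ifih1, Ddx58 and Dhx58 the left and right libraries overlapped.

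In the oligoadenylate synthetase family, whose active members make short oligoadenylates when they bind double-stranded RNA, Oasl2 (ENSMUSG00000029561, chr5:114896936-114912234) was called. It stood at 7.58 and 8.36 CPM on the left, against 4.49, 4.64 and 4.57 CPM on the right. The left mean of 7.97 ± 0.554 (SD, n = 2) lay well outside the right mean of 4.57 ± 0.0740 (SD, n = 3). The log2 fold change of Oasl2 was 0.72 (SE 0.17, edgeR adjusted p = 0.0276). Oas1a stood at 1.30 and 0.863 CPM on the left and at 0.257, 0.331 and 0.751 CPM on the right, without overlap. Its log2 fold change of 1.19 (SE 0.53) was not called (edgeR adjusted p = 0.196), and its near-identical copies can take up some of its reads. Oas2 had 0.77, with right 1039 inside the range of the left libraries.

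The IFIT proteins, which bind viral RNA, and the other antiviral effectors held no called gene among 7. Ifit3 stood at 14.6 and 13.6 CPM on the left and at 9.69, 12.5 and 9.63 CPM on the right. Its groups did not overlap, and its log2 fold change was 0.33 (SE 0.15, edgeR adjusted p = 0.216). Ifit1 and Ifit2 had 0.07 and 0.04, with overlapping groups. Samhd1, which breaks down deoxynucleotides, stood at 45.2 and 38.2 CPM on the left and at 35.8, 33.4 and 33.9 CPM on the right, again without overlap. The log2 fold change of Samhd1 was 0.20 (SE 0.10, edgeR adjusted p = 0.241). Rsad2 (viperin), Bst2 (tetherin) and Ifitm3 had 0.36, 0.44 and 0.01.

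In the group of ISG15 and ADP-ribosylation, Parp14, a mono-ADP-ribosyltransferase (ENSMUSG00000034422, chr16:35832874-35871544), was called. It stood at 9.20 and 10.02 CPM on the left, above 5.39, 5.90 and 6.01 CPM on the right. The means were 9.61 ± 0.582 (SD, n = 2) and 5.76 ± 0.330 (SD, n = 3), and the log2 fold change was 0.66 (SE 0.16, edgeR adjusted p = 0.0295). Isg15, the ubiquitin-like modifier itself, had a log2 fold change of -0.01, with 2.14 and 1.06 CPM on the left and 1.54, 1.52 and 1.502 CPM on the right. The left libraries of Isg15 lay on either side of the right ones. Usp18, the protease that removes ISG15 and dampens receptor signalling, stood at 2.59 and 1.73 CPM on the left and at 1.03, 1.13 and 1.43 CPM on the right. Its log2 fold change was 0.77 (SE 0.34, edgeR adjusted p = 0.199). Parp9 and its partner Dtx3l, which overlap each other in the annotation, had 0.33 and 0.33.

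The 3 catalytic subunits of the immunoproteasome, which replace constitutive subunits and alter the peptides made for MHC class I, held 1 called gene. Psmb8 (ENSMUSG00000024338, chr17:34197721-34201454) stood at 5.44 and 4.98 CPM on the left, against 2.63, 2.25 and 2.46 CPM on the right. The left libraries lay far above the right ones, with means of 5.21 ± 0.328 (SD, n = 2) and 2.45 ± 0.189 (SD, n = 3). Its log2 fold change was 1.01 (SE 0.22, edgeR adjusted p = 0.0210). Psmb9 stood at 0.907 and 1.79 CPM on the left and at 0.321, 0.464 and 0.751 CPM on the right, and it overlaps Tap1. The groups of Psmb9 did not overlap, and its log2 fold change of 1.31 (SE 0.50) was not called (edgeR adjusted p = 0.135). Psmb10 lay the other way, at 10.3 and 11.7 CPM on the left and 13.1, 15.4 and 12.4 CPM on the right. Its log2 fold change was -0.39 (SE 0.15, edgeR adjusted p = 0.129), and it was the 1 member with both left libraries below all right ones.

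The interferon-inducible GTPases Gbp3, Gbp7, Igtp and Irgm1, which act at the membranes around intracellular pathogens, had log2 fold changes of 0.31, 0.20, 0.25 and 0.22, and none was called. Igtp overlaps Irgm2. Among the other 7 members, Ifi27 stood at 25.7 and 19.2 CPM on the left and at 16.2, 17.8 and 16.5 CPM on the right. The groups of Ifi27 did not overlap, and its log2 fold change was 0.34 (SE 0.14, edgeR adjusted p = 0.157). Without left 1037 the log2 fold change of Ifi27 was 0.112, and without left 1039 it was 0.545. Without 1 right library it was 0.322 to 0.382, and Ifi27 was not called. Ifi27l2a, Ifi35, Ifi44, Rtp4, Trim30a and Xaf1 had log2 fold changes from 0.18 to 0.66, and none was called.

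**Figure D2:**
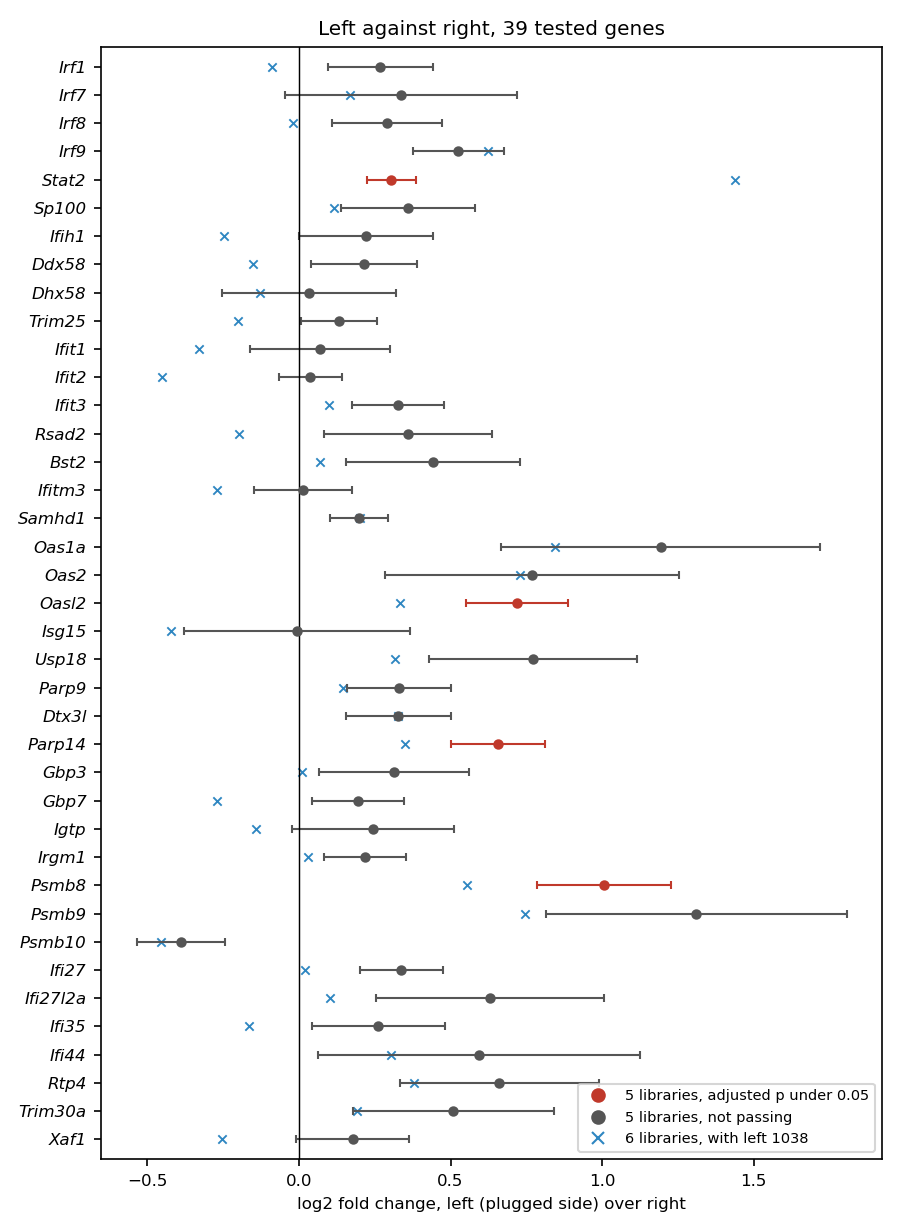
Log2 fold change, left over right, of the 39 tested genes; circles are the 5 libraries with bars of 1 SE, in red where the adjusted p was under 0.05, and crosses are the 6 libraries. Psmb8, Oasl2, Parp14 and Stat2 are red, Psmb10 lies lowest at -0.39, and the cross of Stat2 lies far to the right at 1.44.

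Where the model held side alone, leaving out any 1 library ended each of the 4 calls. Without 1 right library the edgeR adjusted p was 0.0512 to 0.0721 for Psmb8 and 0.0614 to 0.0813 for Oasl2. It was 0.0552 to 0.0926 for Parp14 and 0.0743 to 0.121 for Stat2. Without left 1037 and without left 1039 the log2 fold changes were 0.94 and 1.08 for Psmb8 and 0.79 and 0.66 for Oasl2. They were 0.72 and 0.60 for Parp14 and 0.25 and 0.37 for Stat2. With the mouse as a replicate block all 4 passed, and with Irf9 5 of the 39 members did, where 3.41% of all genes were called higher. DESeq2 with that block in the 5 libraries called only 428 genes in all, either way. It called 0 of the 14 members to which it gave an adjusted p (0.568 for Stat2 and 0.624 for Irf9). It gave none to Psmb8, Oasl2 and Parp14, whose unadjusted p in that DESeq2 fit were 0.0878, 0.0924 and 0.0862. DESeq2 called Psmb8 (adjusted p = 0.0378) and Irf9 higher, where it called 3.04% of all genes higher, but not Oasl2, Parp14 or Stat2 (adjusted p = 0.0627, 0.0618 and 0.0637).

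The side difference can be read within each mouse. The CPM of the left bulb was the higher one for 37 of the 39 members in mouse 1037 and for 30 in mouse 1039, where it was for 65.6% and 63.2% of all genes. On TMM-scaled CPM the counts were 37 and 29, against 50.4% and 49.3% of all genes. For 8 members, Irf1, Sp100, Dhx58, Ifit1, Ifitm3, Isg15, Igtp and Xaf1, the left bulb was higher in mouse 1037 but not in mouse 1039. Ifih1 was higher on the left in mouse 1039 but not in mouse 1037, and Psmb10 was lower on the left in both. The left bulb was higher in both mice for 29 members, and for 49.5% of all genes. Both left libraries lay above all right ones for 23 of the 39 members in CPM, against 33.2% of all genes, and both lay below them for 1, against 13.2%. On TMM-scaled CPM, which sets the median gene near no difference, the counts were 17 (43.6%) and 1, against 20.1% and 21.9% of all genes.

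**Figure D3:**
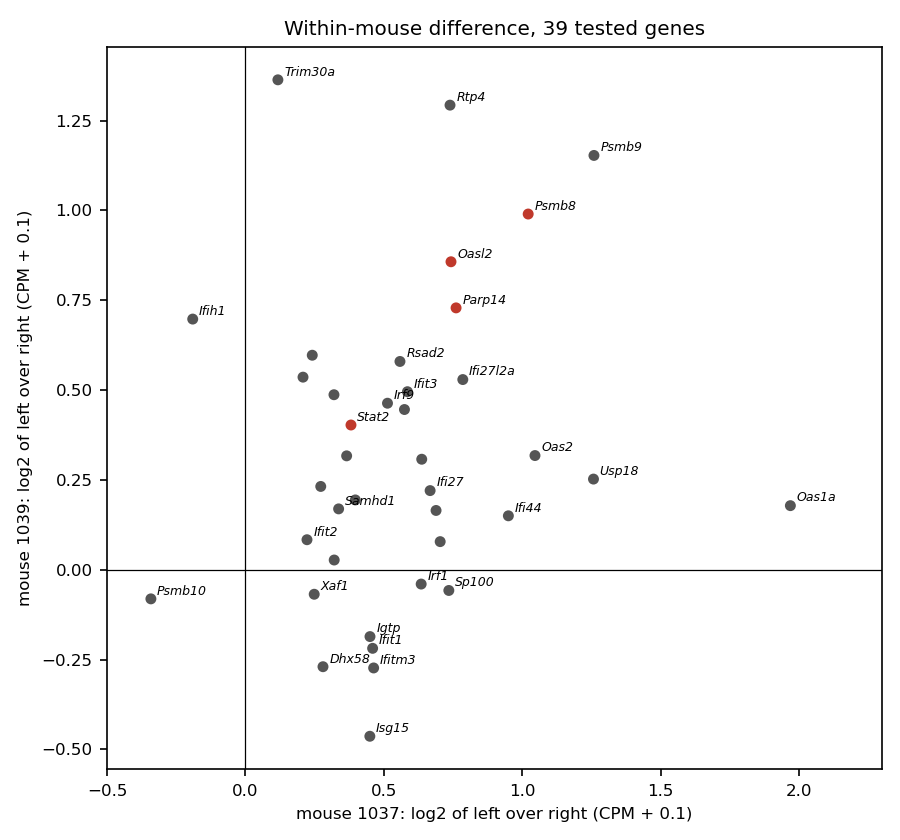
Log2 ratio of left over right (CPM plus 0.1) of the 39 tested genes in mouse 1037 on the horizontal axis and mouse 1039 on the vertical axis; red points are the 4 called genes. In the plot 29 points lie above 0 in both mice, and Psmb10 is the 1 point below 0 in both.

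The members can be set side by side by the ISRE letters in their promoters, with no test. The 15 tested members with the ISRE letters in the window had a median log2 fold change of 0.25. They included 1 called gene, Stat2, whose copy is shown above. The 16 tested members without the ISRE letters had a median of 0.31. They included Psmb8, which carried the GAS letters, and Oasl2, which carried neither. Parp14, the remaining called gene, had no promoter window and is in neither group. Of all genes tested, 3.16% were called higher.

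Other genes of the pathway were taken from lists of ligands, receptors, transducers, regulators and further target genes. Of 10 interferon genes, 9 had a count of 0 in all 6 libraries and Ifna2 had 1 read in left 1037, so no ligand was tested. Of 9 receptors and kinases none was called higher, and Jak1, the kinase shared by the receptors, fell. Jak1 stood at 152 and 154 CPM on the left and at 168, 168 and 173 CPM on the right, with a log2 fold change of -0.23 (SE 0.05, edgeR adjusted p = 0.0298). Leaving out any 1 library ended this call, and so did total library size (edgeR adjusted p = 0.115) and DESeq2 with the mouse as a replicate block (adjusted p = 0.407). Of 8 tested transducers and IRF factors, Irf2bp2, a corepressor partner of IRF2, was called higher with a log2 fold change of 0.28 (edgeR adjusted p = 0.0454, and 0.0708 with the mouse as a replicate block). Leaving out any 1 library also ended the call of Irf2bp2, and DESeq2 did not call it (adjusted p = 0.0566). The 8 negative regulators held no call and had a median of -0.004. The smallest p among them were those of the phosphatase genes Ptpn11 and Ptpn1, with -0.15 and -0.16.

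Of 42 tested further interferon-stimulated genes, 36 had a log2 fold change above 0, with a median of 0.36, and 3 were called higher. Of all genes tested, 51.0% lay above 0 and 3.16% were called higher. Ifitm1, a relative of Ifitm3, stood at 5.57 and 7.23 CPM on the left and at 2.82, 2.72 and 1.98 CPM on the right. Its log2 fold change was 1.26 (SE 0.24, edgeR adjusted p = 0.0109, and 0.0724 without left 1039). Gbp2, a guanylate-binding GTPase, had 0.74 and Rnf213, a large ubiquitin ligase, had 0.37. Both passed the edgeR test (adjusted p = 0.0416 and 0.0351) but not with the mouse as a replicate block (adjusted p = 0.0517 and 0.0615), nor by DESeq2 (adjusted p = 0.0897 and 0.0589). Of the 5 fits that leave out 1 library, the one without right 1039 kept these calls (edgeR adjusted p = 0.0469 and 0.0405). Of 7 genes of MHC class I and peptide loading, H2-K1 and H2-D1, which encode heavy chains, were called higher with 0.49 and 0.28 (edgeR adjusted p = 0.0335 and 0.0376). Each of these was called in 2 of the 5 fits that leave out 1 library, and neither by DESeq2 with the mouse as a replicate block (adjusted p = 0.526 and 0.297). Reads of H2-K1 and H2-D1 can be shared with near-identical class I genes.

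Marker genes of the cells that can express these genes were read in the same 5 libraries. Of 8 microglial markers 7 had a log2 fold change above 0, where 51.0% of all genes had. None was called higher, and Sall1 fell by 0.34 on the log2 scale (edgeR adjusted p = 0.00693). Without Sall1, which alone gave 171 to 212 CPM in the 5 libraries, the summed microglial level was 266 and 290 CPM on the left and 226, 220 and 227 CPM on the right. With Sall1 it was 437 and 463 CPM against 421, 432 and 438 CPM. The median log2 fold change was 0.24 over all 8 markers and 0.25 over the 7 without Sall1, beside 0.33 for the interferon-stimulated genes. Of 6 astrocyte markers, Gfap and Aqp4 rose by 1.05 and 0.30 on the log2 scale (edgeR adjusted p = 6.06e-04 and 0.0101), and the median was 0.06. Gja1 had 0.14, and Aldh1l1, Slc1a2 and Slc1a3 lay below 0, at -0.23, -0.09 and -0.02. Summed, the 6 astrocyte markers stood at 3009 and 3040.0 CPM on the left and at 2438, 2653 and 2669 CPM on the right. Gfap alone stood at 543 and 578 CPM on the left and at 221, 248 and 297 CPM on the right. The 6 endothelial markers had a median of -0.16 and the 5 oligodendrocyte markers one of -0.14. No T cell marker passed the filter, and the 5 together stood at 0.0641 to 0.530 CPM, with Cd8a at 0 to 1 read per library. The 3 B cell markers summed to 0.321 to 1.17 CPM, the 5 markers of blood monocytes and neutrophils to 2.52 to 3.48 CPM and the 5 erythroid markers to 2.52 to 10.8 CPM. The part of these cells in the side difference was not tested.

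**Figure D4:**
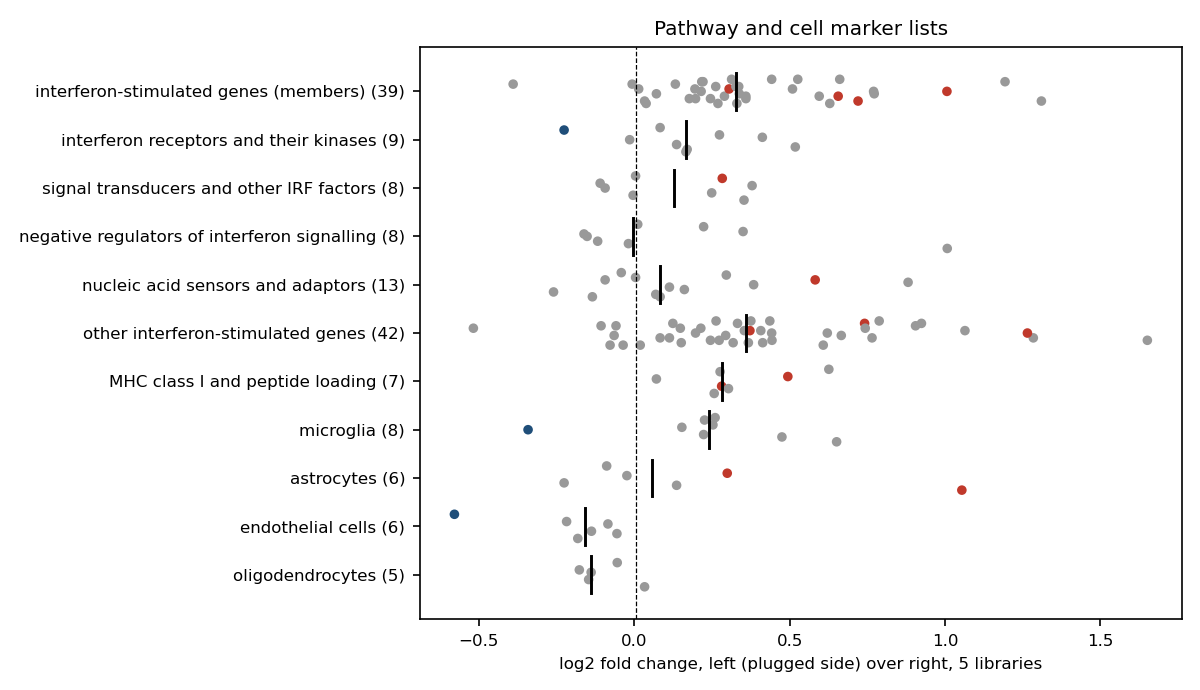
Log2 fold change, left over right, in 5 libraries for each gene of the pathway and marker lists, with the number of tested genes in parentheses; red points were called higher and blue points lower, black bars are medians, and the dashed line is the median of all genes at 0.005. The bars of the members (0.33), the further interferon-stimulated genes (0.36) and MHC class I (0.28) lie to the right of the line, and those of endothelial cells and oligodendrocytes to the left.

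With all 6 libraries no gene of 14209 was called by edgeR, so the share called was 0% for the members and for all genes. At an unadjusted p under 0.05 there were 1196 genes (8.42%) and 2 members, while DESeq2 called 159 genes (1.06%). The log2 fold change was above 0 in 23 of 39 members, against 52.6% of all genes, with a median of 0.07. The library labelled left 1038 by itself lay below the other 5 for 30 of the 39 tested members (76.9%), against 42.0% of all genes. It lay above them for 2 members, against 35.2% of all genes, and within them for 7. Stat2 stood at 218 CPM there, 5.39 times the median of the others, and Irf9 at 29.5 CPM, just above left 1037. Ifit2 stood at 3.64 CPM, where the median of the others was 7.83-fold higher. Rsad2 had 1 read (0.0686 CPM) against 1.86 to 3.52 CPM, Ifi27l2a had 1 read, and Ifih1 stood at 0.892 CPM against 4.51 to 7.37 CPM. Psmb9 had a count of 0 there, which allows up to 0.206 CPM. The microglial markers without Sall1 summed to 69.8 CPM in this library. It is a single library, so these values have no replicate check.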

How the data were processed

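The authors deposited whole-number read counts, RPKM values and gene lengths in 1 table, per the file headers. The deposited RPKM were recomputed from the counts within 3.8e-11 and not used, since the length was within 1 base of the genomic span, introns included, for 78.3% of genes. The build GRCm38 and the tools HTSeq 0.6.1p2, cutadapt 1.2.1, DESeq 1.18.0 and TopHat2 are listed without a role, per the submitters' processing notes. Strand use and the treatment of reads with several positions are not given in the sources used here, so reads of overlapping genes (9 members) and near-identical copies are uncertain.

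The test was edgeR's quasi-likelihood F test (version 4.0.16, R 4.3.3, TMM scaling, genes kept by filterByExpr). The model held side alone, and two-sided p were adjusted by Benjamini-Hochberg over every tested gene. The SE is the absolute log2 fold change divided by the square root of F. Genes were called at an adjusted p under 0.05. The edgeR fit with side alone was checked on simulated counts, for the fold changes it returned. Its adjusted p and the other models were not checked in that way. Other settings tried were DESeq2 1.42.0, limma-voom (limma 3.58.1), RLE scaling, library totals alone, no filter, a filter of 1 CPM, the mouse as a replicate block, and each library left out in turn. The 4 libraries of mice 1037 and 1039 were also fitted with that block. The labels pair the bulbs by animal. The difference between left 1037 and left 1039 correlated with that between right 1037 and right 1039 across 14412 genes (r = 0.271). Bulbs of separate mice are separate samples.

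The members, lists and rules were chosen with earlier results of these data known. Values per library are given for members called or with an unadjusted p under 0.05, filled up to 12 by the smallest p, for up to 4 genes of each pathway list, and for members farthest outside the other libraries in left 1038. Isg15 was given in full after its values were seen. Symbols matched 21852 identifiers and 243 had none. Exon lengths are from the GENCODE annotation. Results on some genes of the pathway lists are not reported here.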

Additional observations from a re-analysis of the deposited data

How the results depend on the processing

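In the 5 libraries, 225 of 296 values recomputed for the 22 genes the naming rule chose kept their direction and side of the threshold, 63 fell short of it, 8 passed it and 0 reversed. The members called higher numbered 2 by DESeq2, 0 by DESeq2 with the mouse as a replicate block (14 members had an adjusted p), 5 by edgeR with the replicate block, and 0 to 2 when 1 library was left out. Genes called in all numbered 428 by DESeq2 with the block, 1553 by edgeR with the block and 660 to 1096 with 1 library left out, against 1387.

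In the 6 libraries DESeq2 called 159 genes, and 25 with the block. Leaving out 1 library gave 0 to 1387 genes and 0 to 4 members, the highest without left 1038. The members' median was -0.10 by limma-voom, -0.10 by edgeR with the block, -0.074 by DESeq2 with the block, and -0.225 to 0.327 with 1 library left out. Of 166 values for 12 named members 14 reversed. By limma-voom Psmb9 had -0.39, Ifi27 -0.084 and Usp18 -0.024. Ifi27 had -0.10 by edgeR with the block, and Psmb9, Ifi27 and Usp18 had -0.053, -0.095 and -0.004 by DESeq2 with the block. With 1 library left out, Psmb9 ranged from -0.209 to 1.31, Ifi27 from -0.333 to 0.338, Usp18 from -0.26 to 0.772 and Ifit3 from -0.07 to 0.327. The cause was not tested. Low counts limit the precision of genes near 1 CPM, such as Oas1a and Psmb9.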
